A study of Mus musculus with 10 samples.

Results

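The genes for the enzymes that place and remove methyl groups on lysine 4 of histone H3 (H3K4) were followed in single mouse oocytes. They were chosen by name, for their role: the methyltransferase genes Kmt2a, Kmt2b, Kmt2c, Kmt2d, Setd1a and Setd1b, the CpG-binding subunit gene Cxxc1, and the demethylase genes Kdm1a, Kdm1b and Kdm5b. They are 10 of the 35501 genes to which the deposited transcripts were summed, and 9 of them are among the 11664 genes whose mean level allowed a test. The libraries were 5 TubA oocytes and 5 control oocytes, all from ICR mice 6 to 8 weeks old, taken from the ovary at the germinal vesicle stage and matured in culture for 16 h to metaphase II. TubA was given at 0.1 µg/mL for 16 h. The name usually stands for tubastatin A, which blocks HDAC6, an enzyme that deacetylates tubulin, but the labels leave it unexplained. The labels do not say what the control oocytes received in place of the agent, and they name no animal or culture, so n counts libraries, and a p-value speaks only of their spread, part of which may be technical. The comparison asks whether maturation with TubA changes the stored messages of these enzymes.

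H3K4 methylation marks active promoters in its trimethylated form and enhancers in its monomethylated form. It is written by the SET-domain enzymes of the COMPASS family, each of which works in a complex on a shared core of subunits, and erased by flavin-dependent amine oxidases of the LSD family and by JmjC-domain enzymes of the KDM5 family. Growing mouse oocytes build up broad domains of H3K4 trimethylation outside promoters, and these domains are removed after fertilisation. A metaphase II oocyte does not transcribe, so its mRNA is a store built earlier and drawn down during maturation.

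Values are in TPM, an abundance per unit of transcript length scaled to the same total in each library. Levels of different genes are set beside each other here with limits. The method reads polyadenylated RNA, and a gene's sum rests on the annotated forms listed. Short fragments can hold much of it, as the 751-base Kmt2d-203 did with 50.7% of Kmt2d. The unit keeps no record of how many reads were sequenced, so depth is unknown here and counting error cannot be given. Both groups carried the transcripts of oocytes: the 10 oocyte markers summed to between 29464 and 39829 TPM in TubA libraries and between 28373 and 39517 TPM in control libraries. Gdf9, a growth factor of oocytes, averaged 6343 ± 845 TPM with TubA and 5587 ± 812 TPM in control (SD, n = 5 each). The 12 cumulus and granulosa markers summed to 13.4 to 25.5 TPM with TubA and 15.7 to 22.5 TPM in control, with Foxl2 and Amh listed at 0 in all 10 libraries. The 10 theca and stroma markers summed to 7.93 to 18.6 TPM with TubA and 8.06 to 26.0 TPM in control, and the 10 blood, immune and endothelial markers to 43.0 to 79.9 and 28.3 to 78.7 TPM. The libraries fell into 2 sets that cross the treatment, set A with TubA replicates 1 and 2 and control replicates 1 to 3, and set B with the others. None of the 10 genes separated the sets: for each, the ranges of the sets overlapped. Hdac6, the gene of the enzyme that tubastatin A inhibits, averaged 5.60 ± 3.20 TPM with TubA and 4.34 ± 2.66 TPM in control (SD, n = 5 each).

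The 10 genes spanned a wide range of levels, from Kdm1b to a Kmt2a message that was hardly listed. Averaged over all 10 libraries the order was Kdm1b at 120 TPM, Kmt2c at 68.0, Kdm1a at 48.3, Kmt2d at 27.99, Cxxc1 at 20.1, Setd1a at 19.7, Kmt2b at 7.97, Setd1b at 4.16, Kdm5b at 1.93 and Kmt2a at 0.318 TPM. These are sums over all annotated forms. Over coding transcripts alone Kdm1b averaged 71.4 TPM, close to Kmt2c at 68.0 TPM, since 37.6% of Kdm1b was a retained-intron form. The full-length forms alone lay further apart, with Kdm1b-201 at 63.6 TPM and Kmt2c-201 at 19.0 TPM. Kdm1b stood above 88.2% of the genes tested by its mean level, Kmt2c above 81.9%, Kmt2b above 42.0% and Kdm5b above 13.1%. Kmt2a lay under the mean of 1 TPM required for a test. Neighbours in this order often changed places from library to library. Cxxc1 was above Setd1a in 3 of 10 libraries, and Kmt2d above Cxxc1 and Kdm1b above Kmt2c in 7 of 10. Setd1a was above Kmt2b, and Kdm5b above Kmt2a, in 10 of 10.

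**Figure D1:**
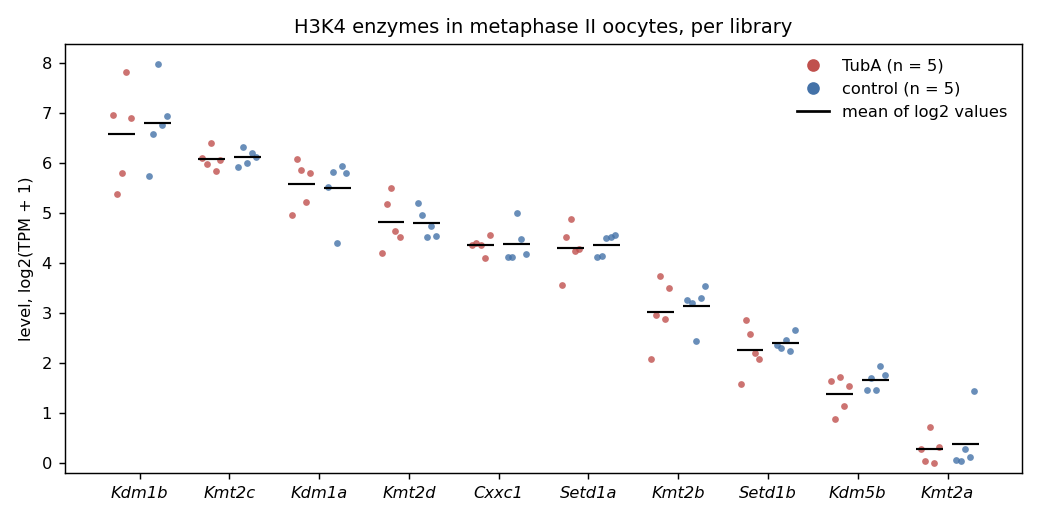
Level of each gene as log2(TPM + 1), 1 point per library, with TubA libraries left of control libraries and the mean of the log2 values as a bar (n = 5 each). The genes run from Kdm1b to Kmt2a by mean level, and in each gene the points of both groups overlap.

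None of the 9 H3K4 genes tested differed between TubA and control oocytes beyond the spread of the libraries. The test was limma on log2(TPM + 1) over every gene averaging 1 TPM or more, with Benjamini-Hochberg adjustment at 0.05, and a difference is TubA minus control on that scale. Of the 9 genes tested, 0 passed (limma, smallest adjusted p = 0.9999), against 1 of 11664 genes or 0.00857% over the whole table. At an unadjusted p under 0.05 the count was again 0 of 9 genes (limma, smallest unadjusted p = 0.32), against 2.51% of all genes, 1.13% of them higher and 1.38% lower with TubA. In 0 of 10 genes were the TubA and control libraries free of overlap, against 0.454% of all genes tested (0.189% higher and 0.266% lower with TubA). The differences of the 9 genes had a median of -0.07 log2 units, against 0.01 for all genes. Of the 9, 7 were below 0 and 2 above 0, where 51.4% of all genes tested were above 0. Several of these signs turned when a single library was left out.

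The intervals say how large a change, relative to the other genes, could have gone unseen. A change shared by the whole mRNA store would not show, since TPM has the same total in each library. For 8 of the 9 genes the 95% interval stayed within 2-fold, up or down, for TPM + 1, as it did for 57% of all genes tested. Kdm1b is the exception, with an interval from -1.27 to 0.81 log2 units. Standard errors ran from 0.17 log2 units in Kmt2c to 0.48 in Kdm1b, with a median of 0.27, against 0.33 over all genes. For low genes such as Kdm5b and Setd1b the bound allows a larger change in TPM, since the pseudocount of 1 damps it.

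**Figure D2:**
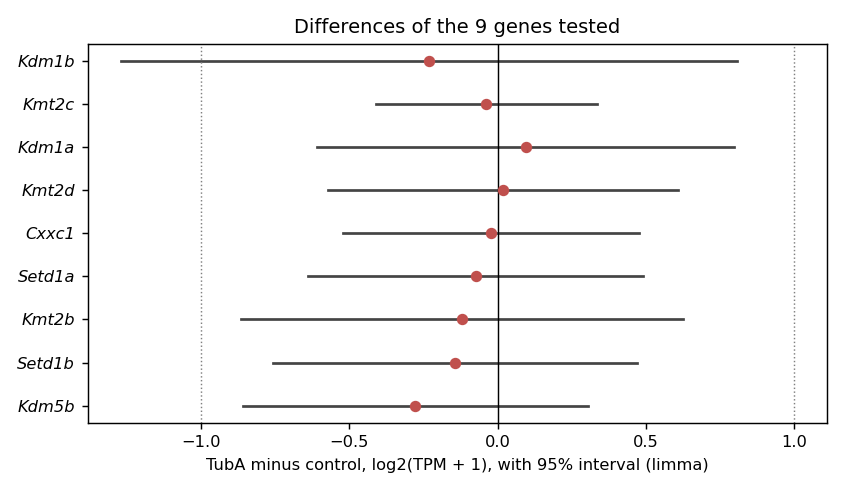
Difference of each of the 9 genes tested (points, mean log2(TPM + 1) with TubA less that in control) with its 95% interval from limma (lines). The dotted lines mark a 2-fold change; Kdm1b, with a lower bound of -1.27, is the gene whose interval crosses one.

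Among the methyltransferases, the KMT2C and KMT2D enzymes write monomethylation at enhancers. Kmt2c (ENSMUSG00000038056, chromosome 5, 25271798 to 25498783, GRCm38) was the most abundant writer by the sum over its annotated forms, and the steadiest. It was listed at 67.5, 62.2, 83.6, 56.3 and 66.3 TPM in TubA replicates 1 to 5, against 59.8, 79.0, 63.7, 72.5 and 68.9 TPM in control replicates 1 to 5. The highest of the 10 libraries was 1.48 times the lowest, and 1.89% of the genes tested had a smaller residual SD on the log2 scale, a measure that also depends on the level. Its difference was -0.04 log2 units with a 95% interval from -0.41 to 0.33 (limma). By long forms alone the rank is not clear. Kmt2c-201 averaged 19.0 TPM (14.8 to 22.0 over all libraries) and Setd1a-201 averaged 17.0 TPM (6.34 to 22.5). Kmt2d (ENSMUSG00000048154, chromosome 15, 98831669 to 98871204) was listed at 17.5, 35.6, 44.5, 23.9 and 22.1 TPM in TubA libraries, against 35.9, 30.3, 22.0, 25.7 and 22.5 TPM in control libraries. TubA libraries held both the highest and the lowest value of Kmt2d, and its difference was 0.02 log2 units with an interval from -0.57 to 0.61 (limma).

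KMT2A and KMT2B are the closely related trimethylating enzymes of the MLL type, and KMT2B is known in mice as the one needed for most H3K4 trimethylation in oocytes. Kmt2b (ENSMUSG00000006307, chromosome 7, 30568858 to 30588726) was listed at 3.20, 6.82, 12.3, 6.34 and 10.3 TPM in TubA libraries, against 8.56, 8.24, 4.42, 8.86 and 10.7 TPM in control libraries. The groups overlapped, with a difference of -0.12 log2 units and an interval from -0.87 to 0.63 (limma). Kmt2a (ENSMUSG00000002028, chromosome 9, 44803355 to 44881296) stayed under 1 TPM in 9 of 10 libraries. It was listed at 0.213, 0.0258, 0.652, 0 and 0.240 TPM in TubA libraries, against 0.0352, 0.0217, 0.215, 0.0787 and 1.70 TPM in control libraries. Control replicate 5 alone lay above 1 TPM, with 1.45 TPM on Kmt2a-206, a fragment of 521 bases, and 0.0166 TPM on the full-length Kmt2a-201. In every library Kmt2b was listed above Kmt2a.

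SETD1A and SETD1B work in the complexes that hold CXXC1, a protein that binds unmethylated CpG and whose loss in mouse oocytes is known to lower H3K4 trimethylation. Cxxc1 (ENSMUSG00000024560, chromosome 18, 74216124 to 74221496) was listed at 19.4, 20.2, 19.7, 16.1 and 22.7 TPM in TubA libraries, against 16.4, 16.4, 31.1, 21.4 and 17.1 TPM in control libraries. Control replicate 3 was the highest library and TubA replicate 4 the lowest, and the difference was -0.02 log2 units with an interval from -0.52 to 0.48 (limma). Setd1a (ENSMUSG00000042308, chromosome 7, 127776670 to 127800122) was listed at 10.7, 22.1, 28.7, 18.0 and 18.4 TPM in TubA libraries, against 16.5, 16.7, 21.6, 22.0 and 22.7 TPM in control libraries. Setd1b (ENSMUSG00000038384, chromosome 5, 123142193 to 123168629) was lower, at 1.98, 6.25, 5.01, 3.58 and 3.21 TPM in TubA libraries, against 4.12, 3.92, 4.48, 3.72 and 5.34 TPM in control libraries. In both genes TubA libraries held the highest and the lowest value, with differences of -0.07 log2 units for Setd1a (interval from -0.64 to 0.49) and -0.14 for Setd1b (interval from -0.76 to 0.47, limma). The gene Gm49388, annotated over 51.8% of the exonic bases of Setd1a, was listed at 0 throughout. Together the 6 methyltransferases summed to 128 ± 29.1 TPM with TubA and 129 ± 8.41 TPM in control (SD, n = 5 each), and Kmt2c held between 46.8% and 66.8% of that sum in each library. That share counts all annotated forms of Kmt2c, of which the full-length Kmt2c-201 held 27.9%.

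The demethylases KDM1A (LSD1) and KDM1B (LSD2) remove mono- and dimethylation. KDM1B is known in mouse oocytes for clearing H3K4 methylation from imprinted regions before DNA methylation is set there. Kdm1b (ENSMUSG00000038080, chromosome 13, 47043499 to 47085279) was the most abundant and the most variable of the 9 genes tested. It was listed at 125, 40.7, 55.0, 226 and 118 TPM in TubA libraries, against 52.9, 94.9, 253, 108 and 123 TPM in control libraries. TubA replicate 4 and control replicate 3 stood far above the rest, and the highest library was 6.22 times the lowest. Its difference was -0.23 log2 units with an interval from -1.27 to 0.81 (limma), and 0.07 without TubA replicate 2 as well as without control replicate 3. With coding transcripts alone it was -0.46, in set A -0.60 and in set B -0.01. The residual SD of Kdm1b, 0.90 log2 units, was larger than that of 86.5% of the genes tested.

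Kdm1a (ENSMUSG00000036940, chromosome 4, 136550540 to 136602723), whose maternal product is known to be needed by the early mouse embryo, was listed at 30.1, 67.3, 57.4, 36.6 and 55.2 TPM in TubA libraries. In control libraries it was listed at 44.8, 55.4, 20.2, 61.0 and 54.7 TPM. Control replicate 3 was the lowest and TubA replicate 2 the highest, and the difference was 0.09 log2 units with an interval from -0.61 to 0.80 (limma). It was -0.03 without TubA replicate 2 and -0.18 without control replicate 3. KDM5B is the JmjC-domain demethylase that removes trimethylation and is known for clearing the broad domains after fertilisation in the mouse. Kdm5b (ENSMUSG00000042207, chromosome 1, 134560171 to 134635285) was low, at 2.13, 0.830, 2.30, 1.19 and 1.91 TPM in TubA libraries, against 1.76, 2.23, 1.73, 2.82 and 2.38 TPM in control libraries. The lowest values were those of TubA replicates 2 and 4, but the groups overlapped, with a difference of -0.28 log2 units and an interval from -0.86 to 0.30 (limma, unadjusted p = 0.32).

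Kdm1b and Kdm1a often stood in opposite order between libraries. Control replicate 3 had the most Kdm1b and the least Kdm1a, and TubA replicate 2 had the least Kdm1b and the most Kdm1a. Of the 45 pairs that can be made from 10 libraries, 37 had the library with more Kdm1b listed with less Kdm1a. It was 9 of 10 pairs among TubA libraries and 6 of 10 among control libraries, but 2 of 6 among control libraries without replicate 3, so in control it rested on that library. Within sets A and B the count was 18 of 20 pairs. Over the 36 pairs of the 9 genes the median of this count was 20 of 45. It reached 37 also for Kmt2d with Kdm1b, with 7 of 10 pairs among TubA libraries and 10 of 10 among control libraries, and was lowest, at 7, for Kmt2c with Kdm5b. The ratio of Kdm1b to Kdm1a was 4.14, 0.605, 0.957, 6.19 and 2.15 in TubA libraries, against 1.18, 1.71, 12.5, 1.76 and 2.25 in control libraries. It thus varied more within each group than between them. These counts are a description, since pairs share libraries, TPM values of a library share a total, and the sets of 5 libraries are too small for a correlation within each. The pattern was singled out after the values were seen.

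**Figure D3:**
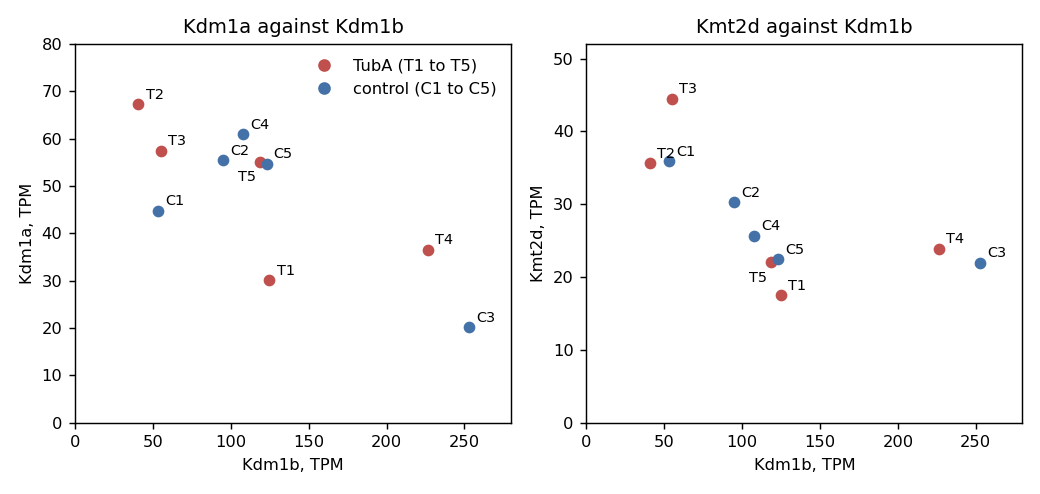
Kdm1a (left) and Kmt2d (right) against Kdm1b, both axes in TPM, 1 point per library (T1 to T5, TubA replicates; C1 to C5, control replicates). T4 and C3, with Kdm1b at 226 and 253 TPM, had Kdm1a at 36.6 and 20.2 TPM and Kmt2d at 23.9 and 22.0 TPM.

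The number of genes listed tended to be high where Kdm1b was high, and Dek and the mitochondrial share tended to be low there. Their part in the spread of Kdm1b was not tested. TubA replicate 4 and control replicate 3 listed the most genes at 1 TPM or more, 11698 and 11677, where the other libraries listed between 10521 and 11471. The protein-coding mitochondrial genes held 0.817% and 0.826% of their TPM, and between 0.646% and 1.64% elsewhere. The 0.646% was in TubA replicate 1, the next highest in Kdm1b, and the 1.64% in control replicate 1, among the lowest in Kdm1b. TubA replicate 2, the lowest in Kdm1b, went the other way, with 0.846%. Dek, a chromatin gene on the opposite strand, covers 505 exonic bases of Kdm1b (9.19%, chromosome 13, 47084775 to 47085279), and without strand reads there cannot be assigned. Dek was listed at 131, 189, 294, 142 and 195 TPM in TubA libraries, against 191, 188, 130, 175 and 232 TPM in control libraries. It was lowest in control replicate 3 and TubA replicates 1 and 4, where Kdm1b was highest. In control replicate 5, which came next in Kdm1b, it was high at 232 TPM. Of words of 31 bases in the 10 genes, at most 0.542% (Kmt2d) also occur in another gene listed above 0.

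The genes whose profile lay nearest to that of Kdm1b were Dpf2, Calu, Cenpl, Rffl and Anapc5. Nearness was the Euclidean distance between log2(TPM + 1) profiles over the 10 libraries, each centred on its own mean, among 6209 other genes averaging 10 TPM or more. Dpf2, a subunit of BAF chromatin remodellers, had a distance of 0.866, Calu, a calcium-binding protein of the secretory pathway, 0.949, and Anapc5, a subunit of the anaphase-promoting complex, 1.09, where the median over all genes was 2.70. Dpf2 was listed at 12.3, 4.17, 7.93, 30.4 and 16.3 TPM in TubA libraries, against 5.40, 9.28, 21.6, 15.7 and 11.0 TPM in control libraries. Kdm1a had a distance of 3.85 from Kdm1b, larger than that of 93.3% of these genes.

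The deposited files give a value for each transcript, which allows the forms of each gene to be seen apart. They differ at places that can be read in the sequence, shown here from the GENCODE M21 transcripts because the split of Kdm1a and Kdm1b turns on them. Kdm1a-202 holds an exon of 60 bases (chr4:136582040-136582099, minus strand, GRCm38) that Kdm1a-203 skips, the exon known in mammalian LSD1 as 2a. The 30 bases of the exons on each side are in lower case and the exon itself in capitals.
Kdm1a-202: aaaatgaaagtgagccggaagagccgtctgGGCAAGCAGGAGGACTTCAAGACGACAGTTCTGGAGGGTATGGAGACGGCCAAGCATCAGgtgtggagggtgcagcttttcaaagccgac
Kdm1a-203: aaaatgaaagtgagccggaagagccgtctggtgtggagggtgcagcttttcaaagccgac
Kdm1b-201 is the full-length coding form of 21 exons, while Kdm1b-203, annotated as a retained intron, runs on past the end of a shared exon (chr13:47071892-47072019, plus strand) into the intron behind it (chr13:47072020-47072283). The last 30 bases of the shared exon are in lower case, and the 30 that follow in each transcript, the next exon (chr13:47073711-47073842) or the intron, in capitals.
Kdm1b-201: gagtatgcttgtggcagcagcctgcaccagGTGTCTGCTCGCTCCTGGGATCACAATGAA
Kdm1b-203: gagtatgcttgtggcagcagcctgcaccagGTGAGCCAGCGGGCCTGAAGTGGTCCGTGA

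Of the forms with and without the 60-base exon, the one that holds it was the larger in every library. Kdm1a-202 held between 46.2% and 61.3% of all Kdm1a. Of the TPM of Kdm1a-202 and Kdm1a-203 together, Kdm1a-202 held 79.5%, 76.3%, 78.3%, 74.6% and 67.1% in TubA libraries, against 81.5%, 71.3%, 92.1%, 75.8% and 72.3% in control libraries. The groups overlapped, with a mean of 75.2 ± 4.90% with TubA and 78.6 ± 8.54% in control (SD, n = 5 each; exact two-sided permutation p = 0.51). The program that divided reads between transcripts is not given in the sources used here. Shares are therefore its estimates, and short annotated fragments such as Kdm1a-207, at 25.4% of Kdm1a, take reads that longer forms could hold.

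Kdm1b was divided mainly between the full-length form and the retained-intron form. Kdm1b-201 held 48.3%, 53.3%, 51.8%, 47.2% and 48.7% of Kdm1b in TubA libraries, against 70.1%, 67.3%, 51.8%, 60.6% and 52.1% in control libraries. Kdm1b-203 held 47.6%, 34.0%, 32.4%, 41.1% and 45.7% in TubA libraries, against 20.7%, 22.5%, 40.9%, 27.9% and 37.3% in control libraries. Kdm1b-201 averaged 49.9 ± 2.57% with TubA and 60.4 ± 8.42% in control, and Kdm1b-203 averaged 40.2 ± 6.81% with TubA and 29.9 ± 8.93% in control (SD, n = 5 each). The exact two-sided permutation p was 0.032 for Kdm1b-201 and 0.079 for Kdm1b-203. Neither passed when adjusted over the 15064 shares of all tested genes with more than 1 such form (Benjamini-Hochberg adjusted p = 1 for each, from exact permutation tests). The smallest p that 5 against 5 libraries can give is 0.0079. Over 15064 shares such a floor lets a share pass only if a great many lie near it. The adjusted p could therefore hardly decide on a single gene. In Kdm1b-201 the ranges of the groups overlap narrowly, through control replicates 3 and 5.

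Kmt2b was likewise divided between a pair of forms. Kmt2b-201, of 37 exons, held 46.4%, 56.7%, 39.3%, 44.4% and 48.1% of Kmt2b in TubA libraries, against 67.7%, 80.6%, 60.6%, 77.2% and 45.1% in control libraries. The shorter Kmt2b-206, of 35 exons, held 50.8 ± 7.66% with TubA and 31.3 ± 17.2% in control (SD, n = 5 each). Control replicate 5 was the library of control that lay among the TubA values in both. The exact two-sided permutation p was 0.032 for Kmt2b-201 and 0.048 for Kmt2b-206 (Benjamini-Hochberg adjusted p = 1 for each over all shares). Of the 20 shares of the H3K4 genes, 3 had an exact permutation p under 0.05, against 3.78% of all shares. These 3 come from Kdm1b and Kmt2b, and shares of the same gene are not independent of each other. After adjustment 0 of 20 passed, as did 0% of all shares, an outcome that the floor of 0.0079 on p made likely beforehand. In 0 of 20 were the groups free of overlap, against 0.617%.

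**Figure D4:**
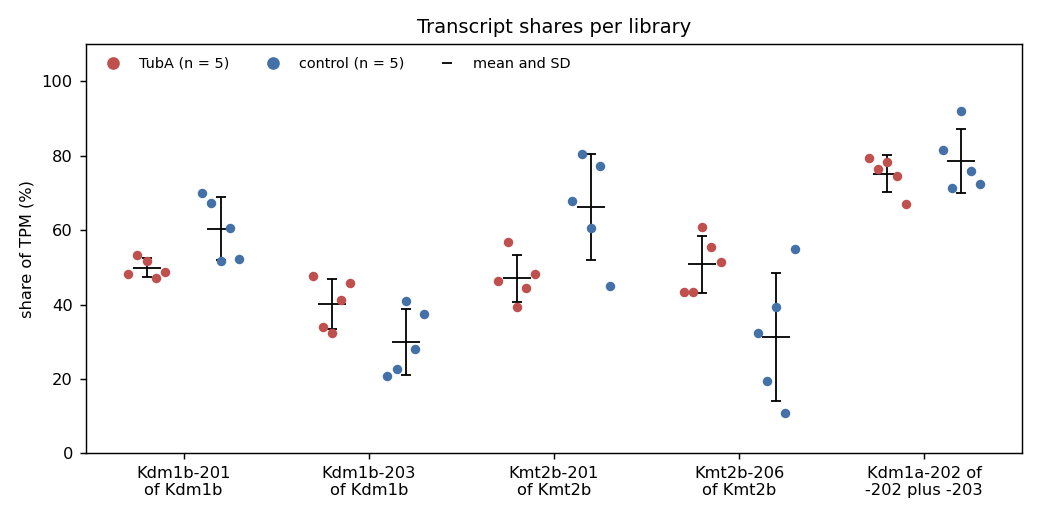
Share of a gene's TPM held by a transcript, in percent, 1 point per library, with TubA left of control; bars give the mean and SD (n = 5 each). Kdm1b-201 and Kmt2b-201 lie lower with TubA on average, 49.9% against 60.4% and 47.0% against 66.2%, with overlap, and Kdm1a-202 lies above 67% of the pair in all libraries.

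Tested one by one on log2(TPM + 1), the transcripts of the 10 genes did not separate the groups either. Of their 60 transcripts in the files, 49 were above 0 somewhere and 22 had a mean of at least 1 TPM. Of those 22, 0 passed (limma with Benjamini-Hochberg adjustment), against 1 of 21838 transcripts or 0.00458% over the whole table. At an unadjusted p under 0.05 the count was 0 of 22 (limma, smallest unadjusted p = 0.095), against 3.15% of all transcripts (1.67% higher and 1.48% lower with TubA). In 0 of the 22 were the groups free of overlap, against 0.467% of all transcripts, 0.234% higher and 0.234% lower with TubA. The largest difference, 1.08 log2 units, was that of Setd1a-205, a fragment of 315 bases listed at 0 in 4 libraries. The interval lay inside a 2-fold change for 9 of the 22, against 40.3% of all transcripts, so single transcripts are less well fixed than their sums. The full-length Kmt2c-201 of 59 exons held 27.9% of Kmt2c over all libraries, behind Kmt2c-202 with 38.6%. The Kmt2d-203 fragment of 7 exons held 50.7% of Kmt2d and the full-length Kmt2d-201 of 55 exons 49.1%. Cxxc1 was listed as a single transcript, Cxxc1-201, in every library.

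The partners of these enzymes, and the other writers, erasers and readers listed, did not differ between TubA and control oocytes at the threshold either. Over 6 lists of 61 genes, 52 were tested and 0 passed in either direction (limma with Benjamini-Hochberg adjustment). At an unadjusted p under 0.05 the count was again 0 of 52 genes (limma), against 2.51% of all genes tested. The median difference was 0.03 log2 units, and 30 of the 52 were above 0 against 51.4% of all genes. The 95% interval lay inside a 2-fold change for 38 of the 52, against 57% of all genes tested.

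Among the core subunits shared by all COMPASS complexes, Dpy30 and Wdr5 were abundant. Dpy30, which helps the core to bind the enzymes, averaged 621 ± 228 TPM with TubA and 643 ± 222 TPM in control, and Wdr5, which docks them, 308 ± 41.3 TPM with TubA and 310 ± 140 TPM in control (SD, n = 5 each). Of the 4 core genes, 3 had a positive difference and 0 passed (median 0.18 log2 units). Of the 10 subunits tested that belong to single complexes, 0 passed (median 0.06). The chromatin-binding cofactor Psip1 averaged 739 ± 90.3 TPM with TubA and 752 ± 241 TPM in control, and Bod1 310 ± 182 TPM with TubA and 322 ± 193 TPM in control. Bod1 averaged 195 TPM in set A and 437 TPM in set B. The other core genes were lower: Rbbp5 averaged 53.6 ± 10.6 TPM with TubA and 43.9 ± 11.3 TPM in control, and Ash2l 16.0 ± 9.19 TPM with TubA and 10.7 ± 2.56 TPM in control.

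Of the genes listed as other methyltransferases, 4 of 8 were tested and 0 passed (median -0.12 log2 units). Smyd3 averaged 68.0 ± 61.9 TPM with TubA and 103 ± 144 TPM in control, and Kmt2e 17.6 ± 2.24 TPM with TubA and 14.8 ± 3.64 TPM in control. Smyd3 rests on single libraries: TubA replicate 2 had 178 TPM and control replicate 3 had 361 TPM, where the others had at most 49.4 TPM. Of those listed as other demethylases, 4 of 5 were tested and 0 passed (median -0.11). Kdm2b averaged 110 ± 45.8 TPM with TubA and 108 ± 53.9 TPM in control, and Kdm5c, a relative of Kdm5b, 5.91 ± 0.861 TPM with TubA and 7.54 ± 1.52 TPM in control. The LSD1 and LSD2 partners gave 0 of 13 (median -0.09). Among them the deacetylase gene Hdac2 averaged 71.5 ± 21.2 TPM with TubA and 75.9 ± 17.3 TPM in control. Proteins that read the mark gave 0 of 17 (median 0.03). The most abundant was Spin1, a reader of H3K4 trimethylation, at 6419 ± 545 TPM with TubA and 6158 ± 827 TPM in control, followed by the TFIID subunit gene Taf3 at 285 ± 18.8 TPM with TubA and 280 ± 48.2 TPM in control (SD, n = 5 each).

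**Figure D5:**
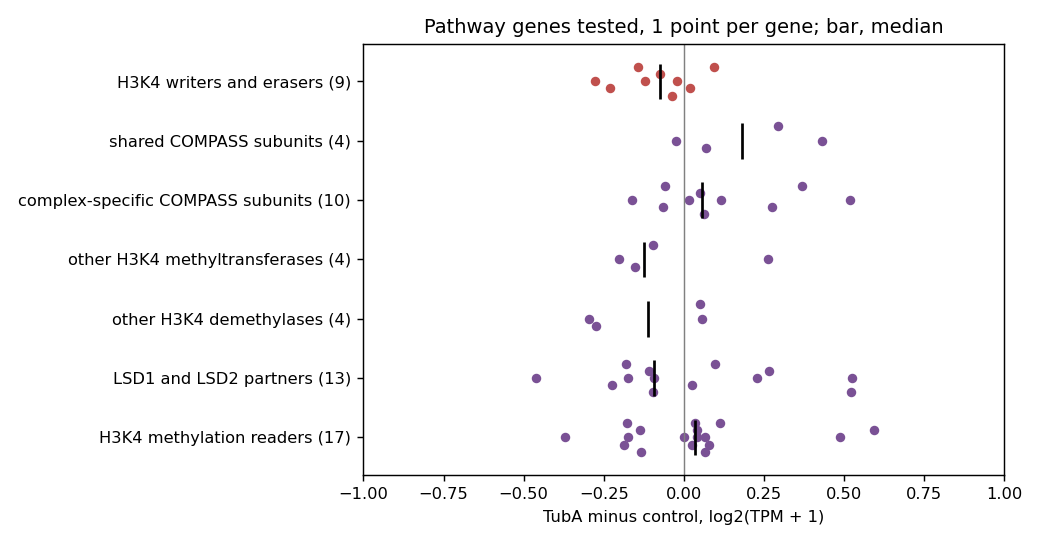
Difference of each gene tested (mean log2(TPM + 1) with TubA less that in control, 1 point per gene, the number of genes in brackets) for the H3K4 writers and erasers and for 6 lists of related genes; the bar is the median. Medians lie between -0.12 and 0.18, and no gene passed the test.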

How the data were processed

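Single oocytes were amplified with Smart-seq2, a full-length method for polyadenylated RNA, per the labels' protocols. Bowtie 0.12.2 and build mm10 are named, without their role, per the submitters' processing notes. Which program estimated abundances, with which annotation and whether with strand, was not given in the sources used here. Deposited files held TPM per Ensembl transcript, a unit read from the values, which sum to 1000000 in each library. TPM keeps no depth. No pair of files was identical.

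Transcripts were summed to genes with GENCODE M21 (GRCm38, the assembly of mm10): 113492 matched and 1778 did not, and the unmatched held 0.531% to 0.753% of TPM. Genes and transcripts were tested with limma 3.58.1 (R 4.3.3) on log2(TPM + 1), for a mean of at least 1 TPM, with robust variance moderation along a mean trend (Benjamini-Hochberg threshold 0.05), over all 10 libraries without covariates; the fit was tested on simulated data. Transcript shares of at least 10% of their gene were compared, over all tested genes, with exact permutation tests, a comparison added after the values were seen. Sets A and B came from complete-linkage clustering of correlations. Genes named are the 10 chosen, Hdac6, Gdf9, the 2 most abundant of each related list (none passed; 1 of them is not reported here), the 5 profiles nearest to Kdm1b, and transcripts with at least 10% of their gene. Setd1a-205, Dek, Gm49388, Rbbp5, Ash2l, Kdm5d, Kdm6a and Rcor1 were named for a value seen, an overlap or to complete a list. Members and lists were chosen with earlier results of these data known. Python 3.11.15, pandas 2.3.3, numpy 2.4.6, scipy 1.17.1 and matplotlib 3.10.9 were used. Alternatives were other pseudocounts, filters, scalings, weights and moderation, coding transcripts alone, the replicate number as a block, library sets, and each library left out.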

Additional observations from a re-analysis of the deposited data

Results flagged for a closer look

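In groups of 5 libraries, a highest or lowest value was marked when its gap to the next exceeded 0.71 of the group's range. Chance gives this for about 1 in 20 groups if values are normally distributed. The rule was applied to TPM without logs, where high values are marked more readily, so the rate by chance is unknown here. Of 56 groups examined, 7 were marked, each for a high value. These groups did not cover every gene of the related lists, and genes outside them also had values set apart in control replicate 3. Kdm6a was high there at 210 TPM (other control libraries 66.1 to 80.7 TPM). Rcor1 was low there at 11.8 TPM (others 33.8 to 40.9 TPM). Among the writers and erasers the 1 case was Kmt2a, at 1.70 TPM in control replicate 5 and at most 0.215 TPM in the other control libraries, with 1.45 TPM of it on the 521-base fragment Kmt2a-206. Smyd3 stood at 178 TPM in TubA replicate 2, with the other TubA libraries between 31.9 and 47.5 TPM, and at 361 TPM in control replicate 3, with the other control libraries between 30.4 and 49.4 TPM. Kdm2b stood at 190 TPM in TubA replicate 4 (others 79.8 to 106 TPM) and at 202.04 TPM in control replicate 3 (others 75.0 to 107 TPM). Hdac2 stood at 109 TPM in TubA replicate 4 (others 55.4 to 67.5 TPM). Wdr5 stood at 558 TPM in control replicate 3 (others 226 to 269 TPM). Control replicate 3 and TubA replicate 4, which account for 5 of the 7, are also the libraries with the most Kdm1b.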

How the results depend on the processing

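The count of H3K4 writers and erasers past the threshold was 0 under each alternative run, as was that of the related genes (limma). The count over all genes, 1, was 0 with a pseudocount of 10, a mean of at least 5 TPM, coding transcripts alone, the replicate number as a block and set B alone, and 12 in set A alone. The count over all transcripts, 1, was 0 with a pseudocount of 10, a mean of at least 5 TPM, the block and set B alone, and 25 in set A alone. Leaving out single libraries gave 1 gene each time and 0 to 2 transcripts. As a check of the pairing, deviations of same-numbered libraries from their group means correlated between -0.31 and 0.48, and 2 of 5 TubA libraries matched best with their own number, so the numbers were not taken to pair the samples. The cause of these changes was not tested. Signs of small differences turned: for Kmt2d -0.01 with quantile normalisation and -0.20 in set A, for Cxxc1 0.11 with library weights and 0.01 in set B, and for Kdm1a -0.01 with weights and -0.24 in set B. With single libraries left out, the difference ran from -0.30 to 0.12 for Kmt2b, -0.22 to 0.11 for Setd1a and -0.29 to 0.03 for Setd1b, each turning to above 0 without TubA replicate 1. It ran from -0.54 to 0.07 for Kdm1b (above 0 without TubA replicate 2 or control replicate 3) and from -0.12 to 0.02 for Kmt2c (above 0 without TubA replicate 4 or control replicate 2, at 0.01). It ran from -0.16 to 0.17 for Kmt2d (-0.08 without TubA replicate 2, -0.16 without TubA replicate 3, -0.05 and -0.04 without control replicates 3 and 5). It ran from -0.09 to 0.13 for Cxxc1 (0.04 without TubA replicate 4, 0.13 and 0.00 without control replicates 3 and 4) and from -0.18 to 0.25 for Kdm1a (-0.03 without TubA replicate 2, -0.18 without control replicate 3). Kdm5b, not tested with the 5 TPM filter, kept its sign under the other alternatives, between -0.43 and -0.06. Kdm1b was -0.46 with coding transcripts alone, -0.60 in set A and -0.01 in set B. Shares of Kdm1b-201 and Kmt2b-201 kept their sign in each run, at -12.3 and -18.1 percentage points in set A and -7.16 and -17.2 in set B. The exact permutation p, unadjusted, was 0.4 and 0.2 in set A and 0.2 and 0.4 in set B. With single libraries left out it ran from 0.016 to 0.063 for each share. These runs reuse the same libraries, and both shares were picked after the values were seen, so the kept sign is no independent support.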

Other observations

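Kdm5d, the Y-linked relative of Kdm5b, was listed in every one of these oocyte libraries, although oocytes carry no Y chromosome. Its level ran between 1.92 and 4.41 TPM in TubA libraries, against 2.60 to 5.10 TPM in control libraries, with the groups overlapping. Of its TPM, 97.3% fell on Kdm5d-204, annotated as a target of nonsense-mediated decay, and 1.08% on the coding form Kdm5d-201. Of its words of 31 bases, 4.65% also occur in other genes listed above 0, with 2.07% in Ccdc82. The level of Kdm5d is not used here as a level of the enzyme. Kdm5d was singled out for its value.

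The summed TPM of the 6 methyltransferases over that of the 3 demethylases was 0.644, 1.22, 1.52, 0.409 and 0.687 in TubA libraries, against 1.26, 0.906, 0.423, 0.775 and 0.732 in control libraries. It averaged 0.897 ± 0.460 with TubA and 0.818 ± 0.302 in control (SD, n = 5 each), within the spread between libraries. Kdm1b made up between 37.4% and 92.0% of the demethylase sum. Both sums count all annotated forms, and the retained-intron form Kdm1b-203 held 37.6% of Kdm1b. Over coding transcripts alone Kdm1b averaged 71.4 TPM, against 120 TPM over all forms. The ratio therefore does not show whether writers or erasers had more coding message.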
